A study of Rattus norvegicus with 20 samples.

Results

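The liver genes of fatty acid synthesis and desaturation were read in rats dosed with isodecyl diphenyl phosphate (IDDP), a plasticiser and flame retardant of the organophosphate ester class. The set holds 10 genes, named by symbol: Srebf1, Thrsp, Pklr, Acly, Acaca, Fasn, Elovl6, Elovl5, Scd and Lpin1. A probe set, the group of short probes that the array reads for a transcript, was taken for a gene where the array annotation gave it that symbol and no other. This gave 19 probe sets out of 31042 tested, and 10 of the 14217 genes that carried a symbol of their own. Of the genes 8 had several probe sets; each of these was read from the brightest by mean over the 20 arrays, and other probe sets are given beside it where they passed against the controls or lay wholly apart from them.

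The animals were male Harlan Sprague Dawley rats that received 4 daily oral gavages in corn oil, with liver taken on day 5. Groups of 3 rats received IDDP at 66 mg/kg body weight (0.169 mmol/kg), 132 mg/kg (0.338 mmol/kg), 263.6 mg/kg (0.675 mmol/kg), 527.1 mg/kg (1.35 mmol/kg) or 1054.2 mg/kg (2.7 mmol/kg), and 5 control rats received corn oil alone, the vehicle that all groups share. Each of the 20 arrays was made from the left liver lobe of 1 rat. The age of the rats, and whether they were fed or fasted at sampling, are not stated by the labels.

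Hepatocytes turn surplus carbohydrate into fat. Pyruvate kinase closes glycolysis, ATP citrate lyase splits exported citrate into acetyl-CoA, acetyl-CoA carboxylase makes malonyl-CoA, and fatty acid synthase builds palmitate, which elongases lengthen and stearoyl-CoA desaturase converts to oleate and palmitoleate. In liver the pathway is known to be driven by insulin through the transcription factor SREBP-1c, the product of Srebf1, and by glucose through the factor ChREBP, and it follows feeding and fasting.

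Levels are log2 intensities, so a difference of 1 is a doubling, and a level of one probe set cannot be set against that of another. Differences come from limma, with p adjusted over all 31042 probe sets and a threshold of 0.05; means of a group are given ± SD and changes ± SE. Any 2 arrays correlated across probe sets with a Pearson's r of 0.977 to 0.996. The hepatocyte markers Alb, Apoa1, Apob, Ttr, Serpina1, Fgb and Hnf4a had means of 12.50 to 15.34 over the arrays, and 0 of these 7 passed at 1054.2 mg/kg, with log2 summed levels of 17.35 to 17.37 at that dose and 17.37 to 17.43 in controls. Their median change was small, at -0.04, but 4 of the 7 lay wholly below the controls, where 7.10% of genes did. Of 6 measured adipocyte markers, Adipoq, Lep, Fabp4 and Plin1 were dim, at means of 4.99, 5.01, 5.88 and 6.15, while Plin4 and Cfd had 7.04 and 8.46. At 1054.2 mg/kg 0 of these 6 passed, with log2 summed levels of 9.32 to 9.36 at that dose and 9.17 to 9.77 in controls.

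The first comparison asks which of these genes differed from the vehicle controls at the highest dose. Scd, the desaturase, Lpin1, a phosphatidate phosphatase of triglyceride synthesis, Pklr, liver pyruvate kinase, and Elovl5, an elongase of polyunsaturated fatty acids, fell to 6.73%, 31.2%, 49.4% and 61.3% of the control level in that order. Fasn and Acaca, which encode the enzymes that build palmitate, were at -0.16 and 0.10 log2 from control and did not pass (adjusted p = 0.843 and 0.861). In all, 4 of the 10 genes were lower, 0 were higher and 6 did not pass, where 2.14% of the 14217 genes were lower and 4.83% passed in either direction. The median change of the 10 genes was -0.42 and that of all genes 0.00. The arrays measured whole liver, so fewer cells of a type and less RNA per cell cannot be told apart.

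**Figure D1:**
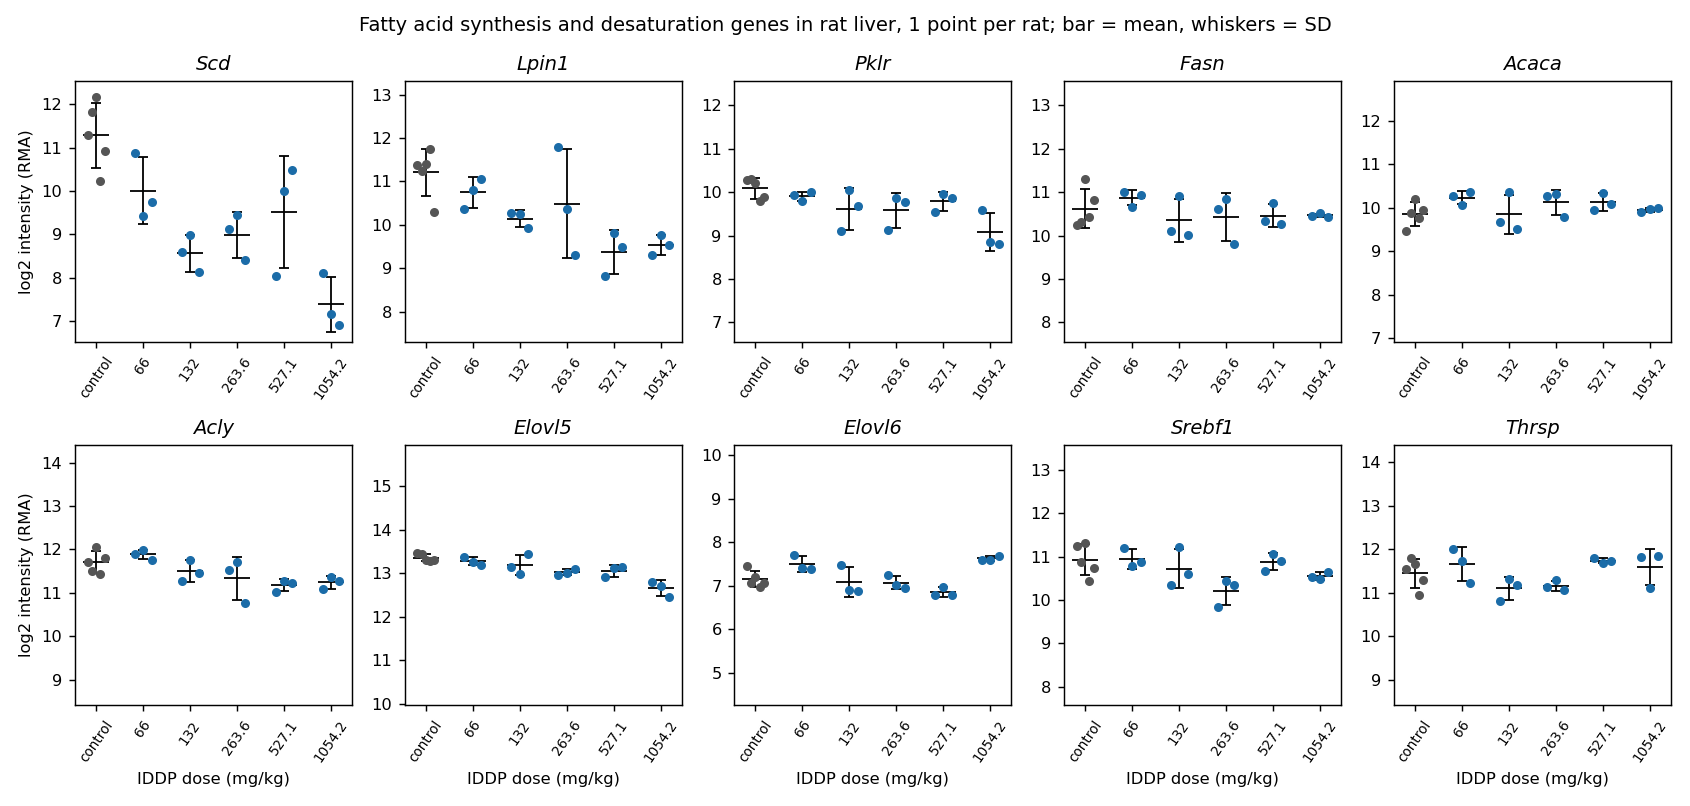
log2 level of each of the 10 genes in every rat (vertical axis, 1 panel per gene) by IDDP dose in mg/kg (horizontal axis, low to high, with the controls marked as control), with each point a rat, each bar a group mean and whiskers its SD. For Scd all 3 rats at 1054.2 mg/kg lie at or below 8.10 and all 5 controls at or above 10.24, while the points of Fasn and Acaca overlap at every dose.

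Srebf1 read 10.54, 10.47 and 10.65 at 1054.2 mg/kg, against 11.25, 10.88, 11.32, 10.45 and 10.75 in the 5 controls. The treated rats lay at the low end of the control range and overlapped it, and the change of -0.37 ± 0.20 did not pass (adjusted p = 0.404). Its other probe set, at -0.42, did not pass either (0.178). Thrsp, the thyroid hormone responsive Spot 14 gene whose product promotes lipogenesis, read 11.83, 11.11 and 11.85 at 1054.2 mg/kg and 11.54, 11.81, 11.65, 10.96 and 11.30 in controls. Replicate 2 lay inside the control range and the others just above it, and the change was 0.14 ± 0.20 (adjusted p = 0.815), with 0.12 and 0.06 for the other probe sets.

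Pklr read 9.58, 8.84 and 8.81 at 1054.2 mg/kg, against 10.29, 10.31, 10.20, 9.79 and 9.88 in controls. All treated rats lay below all controls, with replicate 1 the nearest to them. The group means were 9.08 ± 0.44 at 1054.2 mg/kg (SD, n = 3) and 10.09 ± 0.24 in controls (SD, n = 5), a change of -1.02 ± 0.21 (limma adjusted p = 0.00908). The second probe set also fell, by 0.89 on the log2 scale (adjusted p = 0.0360), again with no overlap. The fall of Pklr did not pass without treated replicate 2 (0.0657) or replicate 3 (0.0810), and that of the second probe set did not pass without either of these (0.204 and 0.187) or without control replicate 1, 2 or 3 (0.0602 to 0.0909).

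Acly, which supplies cytosolic acetyl-CoA, read 11.08, 11.37 and 11.26 at 1054.2 mg/kg and 11.71, 11.50, 12.05, 11.42 and 11.81 in controls. Every treated rat was below every control, though replicate 2 only just, and the change of -0.46 ± 0.17 did not pass (adjusted p = 0.181). It passed with array weights, which count arrays far from their group less (-0.44, 0.0176). With these weights 6439 of all probe sets passed at 1054.2 mg/kg in place of 1024. Acaca, the carboxylase that commits acetyl-CoA to fat, read 9.91, 9.98 and 9.99 at 1054.2 mg/kg, inside the control range of 9.47 to 10.21. Fasn likewise read 10.46, 10.51 and 10.43 at 1054.2 mg/kg, inside the control range of 10.25 to 11.31. The 95% interval of the change was -0.67 to 0.36 for Fasn and -0.27 to 0.47 for Acaca, so changes of up to those sizes are not excluded. The other probe sets were at -0.36 for Fasn and -0.05 for Acaca, and neither passed.

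Elovl6, which lengthens palmitate to stearate, the main substrate of Scd, read 7.60, 7.59 and 7.69 at 1054.2 mg/kg against 7.45, 7.05, 7.20, 6.98 and 7.07 in controls. All treated rats were above all controls, where 9.05% of genes showed this, and the change of 0.48 ± 0.13 stood just outside the threshold (limma adjusted p = 0.0558). It passed with dim probe sets left out (0.0394), with the RNA quality measure as a covariate (0.0429) and with the 8 arrays of these groups alone (0.0351). It also passed without control replicate 1 (0.0290) and with array weights (0.000368), under which 6439 of all probe sets passed in place of 1024. The second Elovl6 probe set was dimmer, under the median of all probe sets, and rose by 0.56 ± 0.11 (limma adjusted p = 0.00602). It read 5.78, 5.83 and 5.72 at 1054.2 mg/kg, above all controls at 5.30, 5.04, 5.23, 5.27 and 5.22.

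Elovl5 read 12.81, 12.71 and 12.45 at 1054.2 mg/kg, against 13.47, 13.44, 13.32, 13.29 and 13.30 in controls. The controls spanned 0.18 from lowest to highest and every treated rat was below them. The change was -0.71 ± 0.11 (limma adjusted p = 0.000506). A second, dimmer probe set read 7.27, 6.61 and 6.76 at 1054.2 mg/kg, against 8.52, 7.74, 7.42, 7.59 and 7.80 in controls. It too lay below all controls, and its change of -0.93 did not pass (adjusted p = 0.129).

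Scd read 8.10, 7.17 and 6.91 at 1054.2 mg/kg, against 11.29, 11.82, 12.15, 10.24 and 10.92 in controls. The lowest control was brighter than the highest treated rat by more than 2 on the log2 scale. The means were 7.39 ± 0.63 at 1054.2 mg/kg (SD, n = 3) and 11.28 ± 0.75 in controls (SD, n = 5), and the change of -3.89 ± 0.48 had a 95% interval of -4.90 to -2.89 (limma adjusted p = 7.64e-05). It was the largest fall of all probe sets and ranked 45 by p. The controls themselves were spread, and their SD for Scd was above that of 99.8% of genes. The array annotation gave Scd 1 probe set, so no second one stands beside it.

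Lpin1 read 9.31, 9.77 and 9.53 at 1054.2 mg/kg, against 11.39, 11.25, 11.40, 11.74 and 10.30 in controls. All treated rats lay below all controls, of which replicate 5 was well below the others. The means were 9.54 ± 0.23 at 1054.2 mg/kg (SD, n = 3) and 11.22 ± 0.54 in controls (SD, n = 5), a change of -1.68 ± 0.38 (limma adjusted p = 0.0172). The second probe set fell by 1.44 on the log2 scale (adjusted p = 0.0195), also with no overlap. Lpin1 did not pass without treated replicate 1 (0.0617) or replicate 3 (0.0755), nor with a robust, intensity-dependent estimate of the spread (0.0510). Its second probe set did not pass without any 1 of the treated rats (0.0578 to 0.0856), without control replicate 4 (0.0525) or with the robust estimate (0.0501).

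Over all 19 probe sets at 1054.2 mg/kg, 6 were lower and 1 was higher, where 3.30% of all probe sets passed. Of the 10 genes 5 lay wholly below the controls, where 7.10% of genes did, and 1 lay wholly above them. No gene had probe sets that passed in opposite directions. Without replicate 3 of this dose, 2 of the 4 genes remained past the threshold, Scd and Elovl5.

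**Figure D2:**
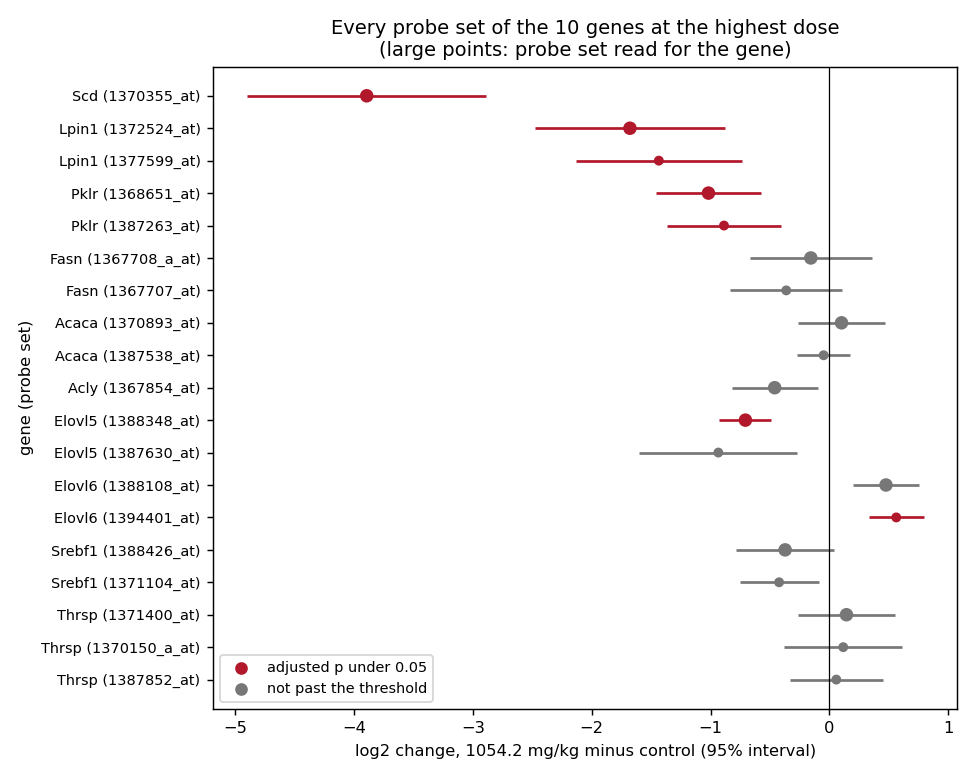
log2 change at 1054.2 mg/kg minus control (horizontal axis) with its 95% interval for each of the 19 probe sets (vertical axis, by gene), red where the adjusted p was under 0.05 and grey otherwise, with larger points for the probe set read for the gene. Scd stands alone near -3.9, both probe sets of Lpin1 and of Pklr are red and below 0, and the only red point above 0 is the second probe set of Elovl6.

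Markers of other liver cells were lower at the same dose. Of 7 Kupffer cell markers 5 fell, where 2.14% of all genes were lower. All 7 lay wholly below the controls, where 7.10% of genes did. Their log2 summed levels were 12.82 to 12.86 at 1054.2 mg/kg and 13.19 to 13.63 in controls. Of 8 stellate cell and fibroblast markers 5 fell, with sums of 11.90 to 12.11 at 1054.2 mg/kg and 12.45 to 12.80 in controls. Of 7 endothelial markers 2 fell and 5 lay wholly below the controls. Their sums were 12.04 to 12.36 at 1054.2 mg/kg and 12.36 to 12.76 in controls. Epcam was the 1 of 5 cholangiocyte markers that rose, where 2.69% of all genes were higher. The cholangiocyte sums were 10.19 to 10.45 at 1054.2 mg/kg against 9.49 to 9.89 in controls. Cela1 was the 1 of 7 pancreas markers that fell, with sums of 10.09 to 10.43 at 1054.2 mg/kg against 10.76 to 11.04 in controls. These sums mostly follow Epcam and Cela1. Epcam had a mean of 9.56 over the arrays and the other cholangiocyte markers 6.69 or less. Cela1 had 10.33 and the other pancreas markers 6.37 or less. The part of these marker shifts in the changes of the lipid genes was not tested. The 3' minus 5' difference of the control transcripts, a measure that grows as RNA degrades, was 1.68 ± 0.11 (SD, n = 3) at 1054.2 mg/kg and 1.64 ± 0.27 (SD, n = 5) in controls.

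At 527.1 mg/kg, Lpin1 was the member that passed. It read 8.82, 9.81 and 9.48, below every control, and the change was -1.84 ± 0.38 (limma adjusted p = 0.0155), with -1.73 (0.00948) for its second probe set. In all 1 of the 10 genes was lower and 9 did not pass, where 0.640% of genes were lower, and the median change was -0.31 against 0.01 over all genes. Lpin1 did not pass without replicate 1 (0.116, and 0.0732 for the second probe set) or replicate 3 (0.0603) of this dose, and 2 genes, Scd and Lpin1, passed without control replicate 4.

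Scd was spread widely at 527.1 mg/kg, at 8.04, 10.00 and 10.48. Replicate 1 was near the level of the highest dose and replicate 3 lay above the lowest control, at 10.24, and the change of -1.78 ± 0.48 did not pass (adjusted p = 0.0682). It passed with the RNA quality measure as a covariate (0.0469) and without control replicate 4 (0.0449). With 1 rat left out it ran from -2.26 to -1.05, the smallest without replicate 1 of this dose (0.361). Acly, Elovl5 and Elovl6 lay wholly below the controls, as Lpin1 did, so 4 of the 10 genes did where 5.03% of all genes did. Their changes of -0.53, -0.31 and -0.31 did not pass (adjusted p = 0.150, 0.165 and 0.311). The second Elovl5 probe set was below every control too, at -0.72 (0.323).

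The lower doses singled out Scd. At 263.6 mg/kg it read 9.12, 9.45 and 8.41, and at 132 mg/kg 8.59, 8.99 and 8.13, in both cases below every control. Its change was -2.29 ± 0.48 at 263.6 mg/kg (limma adjusted p = 0.0387) and -2.72 ± 0.48 at 132 mg/kg (0.0313), the second largest fall of all probe sets at each of these doses. At each, 1 of the 10 genes was lower and 9 did not pass, where 0.225% of genes were lower at 263.6 mg/kg and 0.0422% at 132 mg/kg. Both calls rested on most single rats: at 263.6 mg/kg leaving out control replicate 1, 2 or 3, or 1 of the dosed rats, ended it (0.0840 to 0.109), and at 132 mg/kg leaving out control replicate 1, 2 or 3 or treated replicate 1 or 2 did so (0.0761 to 0.0962). With array medians centred the call at 263.6 mg/kg was lost (0.0540), and with a robust estimate of the spread both were (0.0935 at 263.6 and 0.0880 at 132 mg/kg). In the fits with a rat left out the change of Scd was -2.55 to -2.0 at 263.6 mg/kg and -2.98 to -2.50 at 132 mg/kg.

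At 263.6 mg/kg the second probe set of Srebf1 also passed. It read 7.98, 8.21 and 8.32, below controls at 9.31, 8.90, 9.08, 8.50 and 8.76, a change of -0.74 (limma adjusted p = 0.0440). The brighter Srebf1 probe set read 9.83, 10.44 and 10.34 at this dose, with replicate 2 just under the lowest control at 10.45, and its change of -0.72 ± 0.20 did not pass (adjusted p = 0.115). Leaving out control replicate 1, 2 or 3, or 1 of the rats of this dose, ended the call on the second probe set (0.0531 to 0.183), as did centred medians (0.0597), the RNA quality covariate (0.0538) and a fit of the 8 arrays alone (0.0681). Elovl5 was also wholly below the controls, at -0.34 (adjusted p = 0.166), which made 3 of the 10 genes where 4.78% of all genes were. A second probe set of Elovl5 (-0.86, adjusted p = 0.268) and another of Thrsp (-0.57, 0.202) also lay below them. Lpin1 differed between the rats, at 11.80, 10.36 and 9.31, so that replicate 1 was above every control and replicate 3 below every control.

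At 132 mg/kg all 10 genes had a negative change, where 47.6% of genes did, with a median of -0.24 against 0.01 over all genes. The count takes the sign alone: Acaca had a mean of 9.86 both at this dose and in controls, and Elovl6 had 7.09 against 7.15. Lpin1 read 10.27, 10.25 and 9.92, just below the lowest control at 10.30, which with Scd made 2 of the 10 genes wholly below the controls where 4.04% of genes were. The Lpin1 change of -1.07 ± 0.38 did not pass (adjusted p = 0.214), nor did that of its second probe set (-1.34, 0.118), also below every control. RNA quality varied most here, with a 3' minus 5' difference of 2.31 ± 0.89 (SD, n = 3) and 3.25 in replicate 2, against 1.64 ± 0.27 (SD, n = 5) in controls. The next highest array was 263.6 mg/kg replicate 2 at 2.47. With this measure as a covariate, the change of Scd at 132 mg/kg was -3.01 and did not pass (0.0531); without the pair of arrays it was -2.92 at 132 mg/kg (0.0992) and -2.52 at 263.6 mg/kg (0.0840).

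At 66 mg/kg 0 of the 10 genes passed limma's test, where 0.0141% of genes did, and 3, namely Scd, Acaca and Elovl6, had an unadjusted p under 0.05, where 3.76% of genes did. Scd read 10.87, 9.41 and 9.74, so that replicates 2 and 3 lay below every control and replicate 1 inside their range. Elovl6 read 7.71, 7.41 and 7.38, with replicate 1 above every control. The changes of Scd and Elovl6 were -1.28 (unadjusted p = 0.0155) and 0.35 (0.0161), with an adjusted p of 1 for both in limma, and 0 of the 10 genes lay wholly outside the control range, where 2.12% of all genes lay below it and 3.52% above. The second, dimmer probe sets of Elovl6 (0.36, unadjusted p = 0.00394) and Acaca (0.17, 0.131) did lie above every control at 66 mg/kg, where 2.68% of all probe sets did, with an adjusted p of 1 for both in limma. The median change was 0.10 against 0.01 over all genes.

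**Figure D3:**
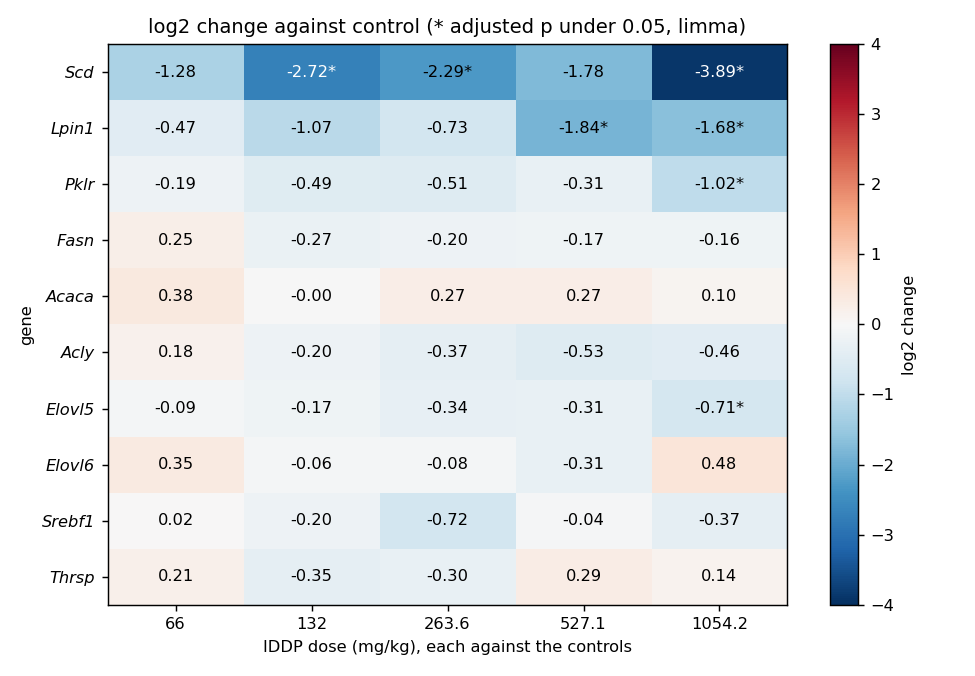
log2 change against the 5 controls of the 10 genes (rows) at each IDDP dose in mg/kg (columns, low to high), blue below 0 and red above, with an asterisk where the adjusted p was under 0.05. Scd is marked at 132, 263.6 and 1054.2 mg/kg, Lpin1 at 527.1 and 1054.2 mg/kg, and Pklr and Elovl5 at 1054.2 mg/kg alone, and all columns share the same controls.

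Over the 6 dose groups, the slope on dose rank passed for 5 of the 10 genes, all downward, where 2.98% of genes were lower and 7.58% passed in either direction. Per step of dose the log2 level changed by -0.62 ± 0.11 for Scd (limma adjusted p = 0.000936), -0.35 ± 0.07 for Lpin1 (0.00212), -0.16 ± 0.04 for Pklr (0.0150), -0.12 ± 0.03 for Acly (0.0161) and -0.12 ± 0.02 for Elovl5 (0.000316). The group means of Scd were 11.28, 10.01, 8.57, 8.99, 9.51 and 7.39 from control to the highest dose, so its level at 132 mg/kg was below those at the next 2 doses. The ranges of Scd overlapped between neighbouring doses except between 66 mg/kg, at 9.41 to 10.87, and 132 mg/kg, at 8.13 to 8.99, and these neighbours were not tested. Over the treated groups alone 0 of the 10 genes passed, with Elovl5 just outside the threshold at a slope of -0.14 (limma adjusted p = 0.0511). The slopes there were -0.43 for Scd, -0.32 for Lpin1, -0.15 for Pklr and -0.16 for Acly (adjusted p = 0.349, 0.250, 0.472 and 0.159). On dose in mmol/kg the slope of Acly did not pass (0.0908). On dose rank that of Pklr did not pass without 1054.2 mg/kg replicate 2 (0.0532) or replicate 3 (0.0604). The second Pklr probe set had a slope of -0.14 on dose rank (limma adjusted p = 0.0490) and passed in 16 of 31 alternatives. The second probe set of Lpin1 passed (-0.31, 0.00442), while that of Elovl5 did not (-0.17, 0.101).

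The highest dose was also set directly against 527.1 mg/kg, 3 rats against 3, where 0 of the 10 genes and 0.0211% of all genes passed, and 4 of the 10 had an unadjusted p under 0.05, where 6.38% of genes did. Elovl6 read 7.60, 7.59 and 7.69 at 1054.2 mg/kg and 6.79, 6.97 and 6.78 at 527.1 mg/kg, with no overlap, a difference of 0.78 ± 0.15 (limma adjusted p = 0.101), with 0.67 (0.0752) for its second probe set. The differences of the other 3 were -2.11 ± 0.54 for Scd (0.383), -0.71 ± 0.24 for Pklr (0.660) and -0.40 ± 0.12 for Elovl5 (0.585). With array weights these 4 genes passed (0.00135 to 0.00500), but so did 656 of all probe sets in place of 4.

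Some rats were high or low for several of the genes at once. Among the controls, replicate 4 was the lowest for 7 of the 10 genes and replicate 3 the highest for 5. After removal of the group means, Fasn followed Acaca (Pearson's r = 0.91 over 20 arrays) and Acly (0.81), and Pklr followed Srebf1 (0.72), while Acaca and Elovl5 ran oppositely (-0.49). These correlations describe arrays that share groups and normalization and carry no test. Over all 20 arrays with the doses left in, Pklr (0.81) and Elovl5 (0.77) were the members most like Scd, then Lpin1 (0.62), Acly (0.57), Srebf1 (0.55), Fasn (0.41), Thrsp (0.24), Acaca (0.13) and Elovl6 (-0.18).

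The 5 genes outside the set whose levels followed Scd most closely over the 20 arrays were the collagen VI chain gene Col6a3 (Pearson's r = 0.88), the small GTPase gene Rab31 (0.88), Gulo, the last enzyme of vitamin C synthesis (0.86), the amino acid transporter gene Slc43a2 (0.85) and the metalloprotease gene Adamts9 (0.84). At 1054.2 mg/kg their changes were -0.92, -0.60, -0.81, -0.47 and -0.90 in that order, each past the threshold and none as large as that of Scd. These genes were picked for following Scd over the same arrays with the doses left in. A fall at the dose where Scd fell most is thus largely set by the choice and is no separate result.

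Other genes of the pathway were read from 5 lists with 63 of 68 members measured. At 527.1 mg/kg 1 was lower, 4 were higher and 58 did not pass, where 2.60% of all genes passed in either direction. At 1054.2 mg/kg 3 were lower, 3 were higher and 57 did not pass. Of all genes 2.14% were lower, 2.69% were higher and 4.83% passed in either direction at that dose. The median change of the 63 was -0.01, near that of all genes at 0.00. Among 8 genes of citrate and NADPH supply, Me1, the malic enzyme that makes NADPH for fatty acid synthesis, rose by 1.23 ± 0.20 (limma adjusted p = 0.000916) and 7 did not pass. A second Me1 probe set rose by 1.17 (0.000536), and at 527.1 mg/kg Me1 (0.86, adjusted p = 0.0278) and the transketolase gene Tkt (0.39, 0.0369) were higher, while the second Me1 probe set did not pass there (0.59, 0.101). These calls at 527.1 mg/kg were lost for Me1 without control replicate 2, 3 or 4 or treated replicate 1 or 3 (0.0574 to 0.132), and for Tkt without control replicate 1, 2, 3 or 4 or treated replicate 1 or 3 (0.0649 to 0.181).

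Among 7 genes of glycolysis and ChREBP, Txnip, a glucose-responsive target of ChREBP, fell by 0.79 ± 0.15 on the log2 scale (limma adjusted p = 0.00482). Gckr, the regulatory protein of glucokinase, fell by 0.57 ± 0.11 (0.00497), and 5 did not pass. Gckr did not pass without 1054.2 mg/kg replicate 3 (0.0578). At 527.1 mg/kg 0 of the 7 passed, with Txnip at -0.58 (adjusted p = 0.0571) and below every control.

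Of 17 genes of triglyceride synthesis, Acsl5, which activates fatty acids to acyl-CoA, fell by 0.70 ± 0.11 on the log2 scale (limma adjusted p = 0.00122), Lpin2, a relative of Lpin1 with the same enzyme activity, rose by 0.91 ± 0.14 (0.000722), and 15 did not pass. At 527.1 mg/kg these 2 genes again passed, at -0.58 (0.0117) for Acsl5 and 0.60 (0.0320) for Lpin2. At 527.1 mg/kg Acsl5 did not pass without treated replicate 1 (0.0897), nor Lpin2 with control replicate 2, 3 or 4 or 1 of the dosed rats left out (0.0738 to 0.151). With the replicate number as a block, Acsl5 (0.0681) and Lpin2 (0.112) did not pass at that dose either. Second probe sets did not share these shifts, at 0.01 for Acsl5 and -0.02 for Lpin2 at 1054.2 mg/kg. By their brightest probe sets alone, Lpin1 and Lpin2 had opposite changes, of -1.68 and 0.91 in that order.

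Of 17 genes of SREBP processing and LXR signalling, Thrb, the thyroid hormone receptor beta gene, was higher at 1054.2 mg/kg (0.43 ± 0.11, limma adjusted p = 0.0385) and 16 did not pass. Among these 16, Insig2, a relative of Insig1, was at -0.40 (adjusted p = 0.205) by its brightest probe set, while a second one was lower (-0.68, 0.0433) and below every control. Thrb was also higher at 527.1 mg/kg (0.46, 0.0411), while its other 3 probe sets did not pass. Leaving out any 1 of the rats at 1054.2 mg/kg ended the Thrb call there (0.0599 to 0.234), as did leaving out control replicate 1, 2, 3 or 4 (0.0580 to 0.102), and at 527.1 mg/kg the same controls or any 1 of the dosed rats (0.0606 to 0.143). The Thrb call at 1054.2 mg/kg was also lost in the fit of that dose and the controls alone (0.0648). Insig1, which holds SREBP in the endoplasmic reticulum and was picked out after its values were seen, was lower at 132 mg/kg (-1.66 ± 0.29, adjusted p = 0.0266) where leaving out control replicate 1, 3 or 4 or treated replicate 1 or 2 ended the call (0.0566 to 0.154), and did not pass at 1054.2 mg/kg (0.26, 0.753). The Insig1 call at 132 mg/kg was also lost with the RNA quality covariate (0.184), without the pair of arrays of highest 3' minus 5' difference (0.172) and with robust moderation (0.0655). Of 14 other elongases and desaturases 0 passed limma's test at 1054.2 or 527.1 mg/kg, and the largest change at 1054.2 mg/kg was that of Scd2, a paralog of Scd, at -0.42 (adjusted p = 0.386). The other Scd2 probe sets did not share it, at -0.09, -0.03 and 0.05.

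**Figure D4:**
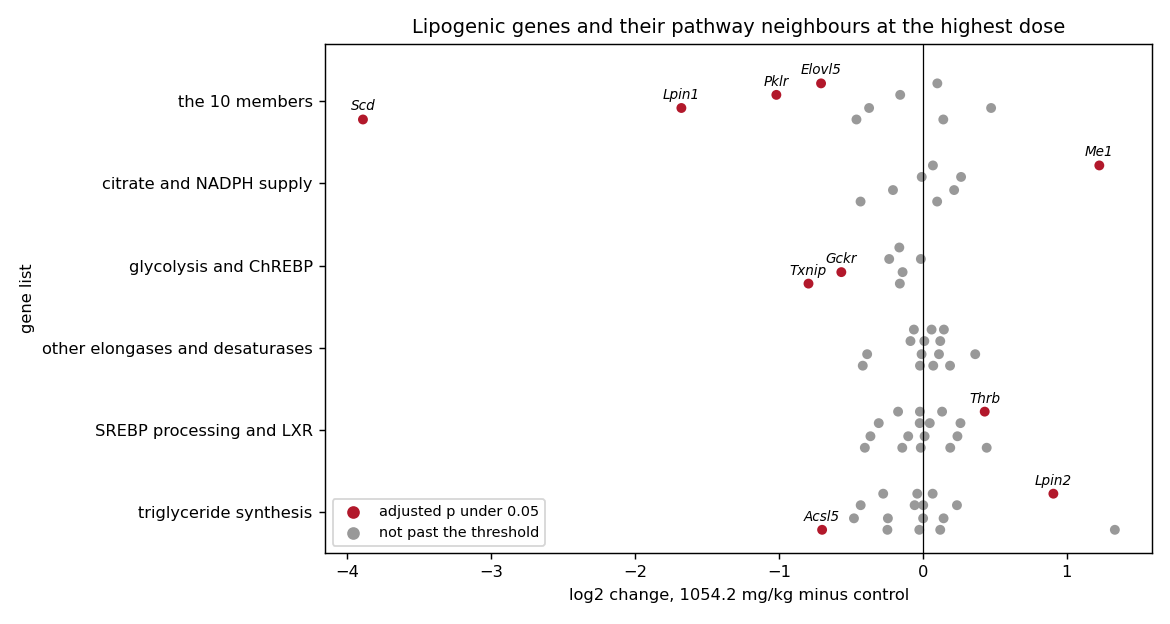
log2 change at 1054.2 mg/kg minus control (horizontal axis) for each gene of the 5 pathway lists and of the 10 genes described here (vertical axis, 1 row per list), red where the adjusted p was under 0.05. Scd lies far to the left of every other gene shown, and each pathway list is spread around 0 with 0 to 2 red points.

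The DNA just upstream of the genes that fell together is shown because the pathway's known regulators bind such sequence. RefSeq's promoter table for rat assembly GRCr8 held 7 of the 10 genes in 8 windows, with Fasn, Acaca and Elovl6 not among them. In that assembly Scd spans chr1:253218968-253232101, Lpin1 chr6:45039110-45145845, Pklr chr2:176840779-176849637 and Elovl5 chr8:87671164-87737618. The 250 bases before the listed start follow for the 4 genes lower at 1054.2 mg/kg, 5′ to 3′ on the gene's own strand, with capitals marking an NF-Y box (CCAAT, or ATTGG on the other strand) or an E-box (CACGTG). The windows are chr1:253231732-253231981 on the minus strand for Scd, chr6:45108943-45109192 minus for Lpin1, chr2:176841014-176841263 plus for Pklr and chr8:87670914-87671163 plus for Elovl5.
Scd: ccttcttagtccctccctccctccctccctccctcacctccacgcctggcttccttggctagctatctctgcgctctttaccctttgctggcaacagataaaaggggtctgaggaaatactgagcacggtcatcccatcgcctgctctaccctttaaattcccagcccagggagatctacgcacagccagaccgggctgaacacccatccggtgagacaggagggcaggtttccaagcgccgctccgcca
Lpin1: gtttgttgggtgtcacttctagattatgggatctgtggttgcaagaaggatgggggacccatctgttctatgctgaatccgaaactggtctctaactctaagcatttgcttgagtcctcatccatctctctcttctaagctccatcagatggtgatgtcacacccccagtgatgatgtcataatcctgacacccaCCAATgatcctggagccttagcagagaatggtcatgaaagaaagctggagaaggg
Pklr: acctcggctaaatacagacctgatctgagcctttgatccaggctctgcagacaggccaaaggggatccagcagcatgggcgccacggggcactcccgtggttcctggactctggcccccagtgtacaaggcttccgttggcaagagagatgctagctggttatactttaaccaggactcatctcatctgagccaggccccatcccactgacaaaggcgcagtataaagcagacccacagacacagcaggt
Elovl5: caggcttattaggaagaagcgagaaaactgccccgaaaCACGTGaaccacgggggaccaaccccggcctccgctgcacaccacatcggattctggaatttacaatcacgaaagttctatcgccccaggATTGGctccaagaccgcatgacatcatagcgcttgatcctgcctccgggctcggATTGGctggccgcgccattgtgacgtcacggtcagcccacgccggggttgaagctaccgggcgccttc

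The search covered both strands for the NF-Y box, the E-box, the GC box (GGGCGG) and an SREBP element (TCACNCCAC), which 34.0%, 5.59%, 30.5% and 0.974% of the 33469 windows in the table held. No match overlapped another. Elovl5 held 2 NF-Y boxes and 1 E-box, Lpin1 1 NF-Y box, and Scd and Pklr none of the 4 motifs. Of the genes that did not pass, Acly held 1 NF-Y box and 3 GC boxes, Thrsp 1 of each, and the 2 Srebf1 windows 1 and 2 NF-Y boxes with 2 GC boxes each. The SREBP element was in 0 of the 8 windows. A match is a string of letters and not a bound site. Apart from the N of the SREBP element only exact letters were counted, so an imperfect E-box would be missed. The search held no element of its own for ChREBP, so a window without a match may still hold a site for a known regulator. The windows of Scd, Lpin1, Pklr, Acly and the second of Srebf1 lie inside the annotated gene, so that other transcripts of these genes start elsewhere.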

How the data were processed

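Liver RNA of 20 rats was hybridised to Affymetrix arrays, 1 array per rat, from 100 ng of total RNA. The deposited values are log2 intensities, made by the authors with RMA (background correction, quantile normalisation and summary of probes) per the submitters' processing notes. No source used here gives its version or the arrays it was run on together. Of 31099 probe sets 57 control probe sets were left out, and no filter on brightness was set. Of the rest, 20826 carry 1 symbol, 436 carry several and 9780 are unnamed here.

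In limma 3.58.1 (R 4.3.3) all 20 arrays entered 1 fit with a mean for each dose group and moderated variances (residual degrees of freedom 14, prior 5.75). P-values are two-sided and adjusted by Benjamini and Hochberg over all 31042 probe sets at 0.05. The trend is a slope on dose rank, 0 to 5. All doses share the 5 controls, so their comparisons are not independent, and p-values measure spread between rats. The number of arrays limits the precision. The code was tested on simulated data with known changes.

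The members, the pathway and marker lists, and the tests were chosen with earlier results of these data known. Genes were read from their brightest probe set. Named were all members, up to 4 genes of largest change per list past the threshold at 1054.2 or 527.1 mg/kg (where none passed, the largest at 1054.2 mg/kg), and the 5 genes most like Scd. Dim means a mean under log2 6.37, the median of all probe sets. Plots were drawn with matplotlib 3.10.9. Replicate numbers were checked as pairs: residuals of same-numbered rats of different groups correlated at a median of 0.07 (-0.35 to 0.47 over 45 pairs). Differently numbered rats gave a median of -0.02 (-0.59 to 0.38 over 120 pairs). Of the same-numbered pairs 15 had an r over 0.1, and of the others 28. The ranges overlapped widely and the numbers were not treated as pairs, but a weak link between same-numbered rats was not tested. Alternatives covered scaling, brightness, the spread estimate, array weights, a block, probe set choice, RNA quality, arrays in the fit, the dose scale and each rat left out; leaving out the 2 arrays of highest 3' minus 5' difference was chosen after seeing the data.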

Additional observations from a re-analysis of the deposited data

Results flagged for a closer look

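The second Fasn probe set read 9.48 in control replicate 3, which stood apart from the other 4 controls, the nearest of them at 8.67, by more than Dixon's 95% critical value allows. It was the 1 of 19 control groups tested that did, and chance gives about 1 in 20. Control replicate 3 was also the highest control for the brighter Fasn probe set, at 11.31, and without it the change of Fasn at 1054.2 mg/kg was 0.016 in place of -0.16.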

How the results depend on the processing

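The number of the 10 genes past the threshold at 1054.2 mg/kg was 4, and 2 to 5 when 1 rat was left out, the lowest without 1054.2 mg/kg replicate 3. It was 3 to 6 under the other alternatives, with 6 under array weights, where Acly and Elovl6 were added. It was 1 at 527.1 mg/kg (0 to 2 with 1 rat left out; 2 with the RNA quality covariate), 1 at 263.6 mg/kg (0 to 1) and 1 at 132 mg/kg (0 to 1). At 263.6 mg/kg it was 0 with array medians centred, 0 with robust moderation, 0 without the 2 arrays of highest 3' minus 5' difference and 3 with array weights. At 132 mg/kg it was 0 with robust moderation, 0 with the RNA quality covariate and 0 without those 2 arrays. It was 4 in place of 0 for 1054.2 against 527.1 mg/kg with array weights, and the 5 of the trend became 0 over the treated groups alone. At 66 mg/kg it was 0 under every alternative run. Some of these fits hold fewer rats, and the cause of the shifts was not tested. The change of Fasn at 1054.2 mg/kg ran from -0.25 to 0.016 with 1 rat left out, above 0 without control replicate 3, and that of Thrsp turned to -0.072 with the replicate block; neither passed in any fit. The replicate numbers were not treated as pairs in the main fit. With the replicate block the same counts of 4, 1, 1, 1, 0 and 5 were found, while the probe sets past the threshold, over all, were fewer. They were 614 in place of 1024 at 1054.2 mg/kg, 283 in place of 520 at 527.1 mg/kg, 78 in place of 133 at 263.6 mg/kg and 930 in place of 1569 for the trend. With array weights they were 6439 at 1054.2 mg/kg, 1188 at 527.1 mg/kg, 885 at 263.6 mg/kg and 5700 for the trend, and with 1 rat left out they ran from 405 to 1069, 212 to 509 and 38 to 193 at those doses, and from 6 to 1482 in place of 21 at 132 mg/kg. Under the other alternatives they lay at 56 to 885 at 263.6 mg/kg, 11 to 50 at 132 mg/kg, 2 to 12 in place of 2 at 66 mg/kg and 1 to 656 in place of 4 for 1054.2 against 527.1 mg/kg, and the trend gave 879 on dose in mmol/kg and 138 over the treated groups alone. Read from the probe set of largest variance, Elovl5 did not pass at 1054.2 mg/kg (-0.93, adjusted p = 0.129). Precision is limited by 3 rats per dose: the SE of a change at 1054.2 mg/kg ran from 0.11 for Elovl5 to 0.48 for Scd.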
